A study of Mus musculus with 15 samples.

Results

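Secondary tumours grown from Myc-type brain tumours were compared with GFP-positive cells of the early postnatal mouse cerebellum on Affymetrix HT MG-430 PM arrays. The comparison takes 6 of the 15 arrays of the series, 3 whose source is the Myc-type secondary tumour and 3 whose source is the GFP-positive sample, and every probe set that maps to a single gene (28898 of 45141 probe sets, for 17097 genes). The primary tumours behind the secondary ones came from cerebellar cells of Cdkn2c-/-, Trp53-/-, Atoh1-GFP mice that were infected to carry Myc and placed in the cerebral cortex of immunocompromised nude mice. Cells of those primary tumours were cultured as spheres and transplanted orthotopically again, and the tumours that grew are the secondary tumours. The GFP-positive cells were sorted by FACS at postnatal day 6 from cerebella of Cdkn2c-/-, Trp53-/-, Atoh1-GFP mice, so both groups lack Cdkn2c and Trp53 and carry the Atoh1-GFP reporter. The source field of these 3 arrays calls them a spontaneous tumour, which the growth protocol does not, and the protocol is followed here. The other arrays, 3 each, are Myc-type primary tumours, Shh-type medulloblastomas that arose spontaneously in Cdkn2c-/-; Trp53Fl/Fl; Nestin-Cre mice, and GFP-negative cells of the same sort.

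Some features of the models bear on every value. The secondary tumours passed through sphere culture and grew again in a host, whose strain the labels do not give for this second transplantation, and the labels mention a Percoll gradient and no sort for tumour cells. A nude mouse, the host of the primary tumours, lacks mature T cells and keeps its other blood, vessel and brain cells. The GFP-positive cells passed a gate on Atoh1-driven GFP, so Atoh1 itself is part of how they were chosen. The labels do not say whether the 3 secondary tumours came from separate primary tumours, sphere cultures or hosts, or whether the 3 sorts used separate litters. The p-values and standard errors therefore measure only the spread between samples within the groups, which may be technical. That spread is taken over all 5 groups, including the arrays outside the comparison. In bulk samples, fewer cells of a type and less RNA per cell cannot be told apart.

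Atoh1 marks the granule neuron progenitors of the cerebellum, which divide in the outer layer of the newborn cerebellum while Purkinje cells supply Sonic hedgehog (Shh). Shh binds the receptor Ptch1, which frees Smo to activate the Gli transcription factors, and Mycn and the D-type cyclins are known targets of this signal in these cells. Myc and Mycn pair with Max and bind the E-box CACGTG, and they are known for raising ribosome production, nucleotide and polyamine synthesis and glycolysis. In human medulloblastoma, high MYC is a feature of group 3 tumours, and Shh-type tumours are held to arise from granule neuron progenitors.

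The deposited values are log2 signals, so each difference below is a log2 difference of secondary tumours minus GFP-positive cells with its standard error, and 1 unit is a 2-fold change. A gene is said to have risen or fallen where its adjusted p in limma was under 0.05. A signal under 4.77, the 95th percentile of the nonspecific control probe sets, is called below background. Where all 3 arrays of the dimmer group were below it, the fold is given as a lower bound ("at least"), and a log2 difference printed beside it is that of the deposited values, not a measured size. Where only the mean of that group was below background, the difference of the deposited values is printed, and its size is also not measured. Examples are Cadps2, Sfrp1, Unc5c, Barhl1 and Zic4 among the falls, and Nrp2, Sparc and Ctss among the rises. Signals of different probe sets are not compared with each other, since each probe set has its own brightness.

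The 3 GFP-positive arrays correlated with each other at Pearson's r of 0.9949 to 0.9952 over all genes. Myc secondary 2 and 3 correlated at 0.9941, while Myc secondary 1 correlated with them at only 0.9623 to 0.9624. Between Myc secondary 1 and the other two, 11.49% and 11.53% of genes lay 2-fold or more apart, against 0.74% between Myc secondary 2 and 3 and 0.24% to 0.42% among the GFP-positive arrays. Results are therefore given for each array, and the list counts that move without Myc secondary 1 are given both ways.

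Of 17097 genes, 4317 (25.3%) differed between the groups, 2306 (13.5%) higher in the secondary tumours and 2011 (11.8%) lower. The signal differed by 2-fold or more for 2687 of them, 1334 higher and 1353 lower. Without Myc secondary 1, 2507 genes were higher and 1975 lower. At 7733 genes (45.2%) the 3 arrays of one group did not overlap the 3 of the other, and the median difference of all genes was 0.05.

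Cdkn2c, which encodes the CDK inhibitor p18Ink4c and is deleted in both groups, lay below background on all 6 arrays, at 4.12, 4.08 and 4.0 against 3.52, 3.48 and 3.54. Its difference of 0.55 passed the test (adjusted p = 0.0013) although neither group had a signal, so no fold is given. Trp53 is not analysed here. Myc measured 10.10, 9.12 and 8.88 in the secondary tumours and 7.37, 7.39 and 6.68 in the GFP-positive cells, without overlap, and the difference was 2.22 ± 0.74 (4.65-fold, adjusted p = 0.043). That call ended when any 1 of the 6 arrays was left out (adjusted p = 0.059 to 0.14), while the difference stayed between 1.85 and 2.46. Mean Myc signal was 8.49 in the Shh tumours, 7.54 in the Myc primary tumours and 8.60 in the GFP-negative cells. In limma the secondary tumours did not differ from the Shh tumours (0.87, adjusted p = 0.45). Nor did the Myc primary tumours differ from the GFP-positive cells (0.39, adjusted p = 0.78).

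Mycn has 3 probe sets, and they moved in opposite directions. The probe set with the highest mean, used for the gene, measured 4.68, 4.73 and 5.16 in the secondary tumours against 10.65, 10.80 and 10.40, a fall by 5.76 ± 0.20 (adjusted p = 1.7e-08). A second probe set also fell, from 8.73, 8.97 and 8.29 to 5.37, 5.64 and 4.99 (by 3.33 ± 0.21). The third measured 13.26, 12.97 and 12.93 in the secondary tumours and 4.01, 4.30 and 4.27 in the GFP-positive cells, all below background there, at least 312-fold higher (adjusted p = 1.7e-12 over every probe set with a gene). The difference of its deposited values was the largest of all 28898 probe sets. The third probe set was as bright in the Myc primary tumours (mean 13.14) and below background in the Shh tumours (4.29) and the GFP-negative cells (3.98). Which stretch of the gene each probe set reads is not given in the sources used here, so the fall of Mycn rests on 2 of its 3 probe sets, and averaging all 3 gives -0.08 (adjusted p = 0.78).

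Of the 11 measured members of the Myc and Max network, 1 rose and 4 fell, with a median difference of -0.34. Mycl, the third Myc paralogue, measured 7.82, 6.25 and 7.0 against 8.27, 8.52 and 8.26, a fall by 1.33 ± 0.36 (adjusted p = 0.015), which did not pass without GFP-positive 2 (-1.24, adjusted p = 0.054) or Myc secondary 2 (-0.94, adjusted p = 0.067). The Max partners Mxd1 and Mxd3, which oppose Myc at its sites, fell by 0.83 ± 0.21 and 0.97 ± 0.25. Averaged over its probe sets Mxd1 did not pass (-0.26, adjusted p = 0.34), nor did Mxd3 without GFP-positive 1 (-0.84, adjusted p = 0.054) or Myc secondary 2 (-0.80, adjusted p = 0.055). The others named for that role or for Myc repression did not pass: Mxd4 at 0.15, Mnt at -0.34 and Zbtb17 at -0.42. Without Myc secondary 1 the count was 0 higher and 5 lower: Myc no longer passed, and Mnt did (-0.66, adjusted p = 0.017).

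**Figure D1:**
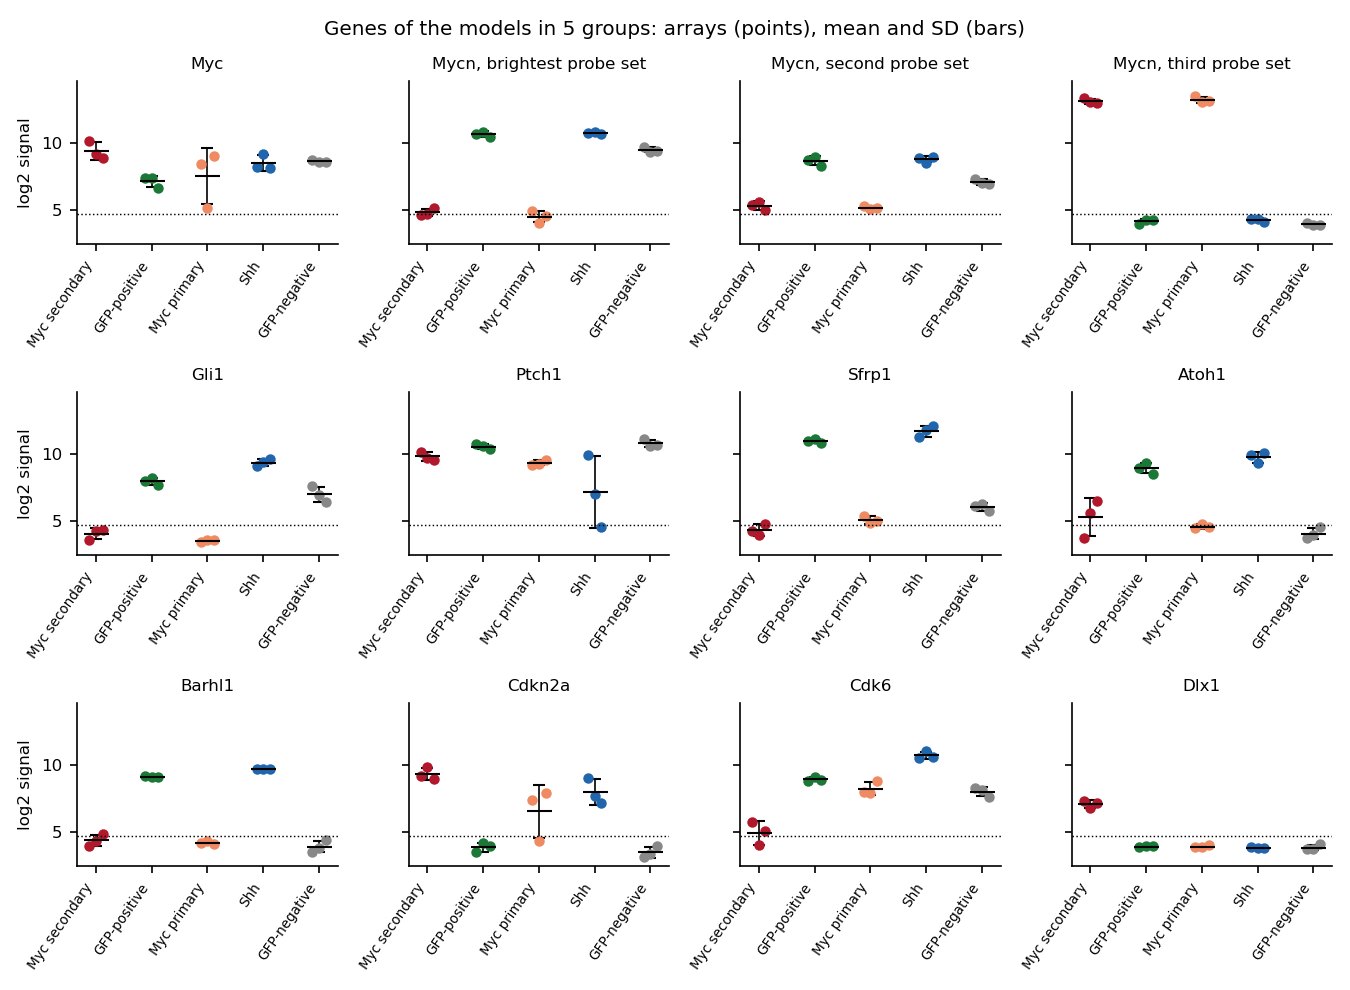
Log2 signal of genes of the model and of the Shh and progenitor programmes, 1 point per array, with the 3 arrays of each of the 5 groups side by side with bars for the mean and SD and a dotted line at background (4.77). The Myc secondary arrays lie at 3.66 to 4.33 for Gli1, where the GFP-positive arrays lie at 7.66 to 8.21.

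Among the 15 largest rises was Mt1, a metallothionein that binds zinc and copper, at 12.54, 12.18 and 11.92 in the secondary tumours against 5.19, 5.65 and 5.45 in the GFP-positive cells, a difference of 6.78 ± 0.59 (SE, n = 3 and 3, adjusted p = 5e-06). Its error takes in the other groups, with an SD of 1.73 in the Shh tumours beside 0.31 and 0.23 in the compared groups. Igfbp2, a carrier of insulin-like growth factors outside the cell, followed at 11.14, 11.00 and 11.17 against 4.75, 5.51 and 5.61 (5.81 ± 0.41, adjusted p = 1e-06), a 56.1-fold difference. In both genes every secondary tumour lay more than 5 units above every GFP-positive array. Igfbp3, of the same family, measured 9.09, 8.90 and 9.04 against 4.16, 4.29 and 4.09, at least 18.9-fold higher. Nrp2, a receptor for semaphorins and vascular growth factors, rose by 4.89 ± 0.22 (adjusted p = 4.8e-08) and Sulf2, an enzyme that trims sulfate from heparan chains, by 5.01 ± 0.48, or 32.3-fold. Htr3a, a serotonin-gated channel subunit, measured 10.31, 8.85 and 9.15 against 4.61, 4.31 and 4.06 and was at least 25.5-fold higher. Lrrfip1 lay at 10.03 to 10.09 in the secondary tumours and at 4.69 to 4.75 in the GFP-positive cells, at least 39.3-fold higher. Fkbp11, a folding enzyme of the endoplasmic reticulum, was at least 21.7-fold higher. The remainder of the 15 were Pdk1, Cdkn2a and the vessel, matrix and macrophage genes Rgs5, Col4a1, Sparc, Mgp and Lyz2, which are described with their groups.

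Where the signal of both groups was above background, 5 further rises led. Cisd3, an iron-sulfur protein of mitochondria, measured 10.75, 11.12 and 10.89 against 6.37, 6.45 and 6.5 (4.48 ± 0.28, 22.3-fold). Eif4ebp1, a repressor of cap-dependent translation, rose by 4.43 ± 0.31 (21.6-fold), and Dctd, a deaminase of the thymidylate pathway, by 4.35 ± 0.25 (20.4-fold). Smpdl3b, related to the sphingomyelinases, rose by 4.32 ± 0.31. Hbegf, a ligand of the EGF receptor, rose by 4.28 ± 0.40, with 9.81, 8.90 and 8.84 against 4.48, 4.39 and 5.85. Its receptor Egfr changed the opposite way: 3.47, 3.79 and 4.14 in the secondary tumours, all below background, against 9.51, 8.95 and 9.02, at least 21.0-fold lower.

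The largest fall of the deposited values was that of Cadps2, which acts in the release of dense-core vesicles and is known from granule cells, at 3.79, 3.54 and 4.83 against 11.42, 11.29 and 11.44, a fall by 7.33 ± 0.51 (adjusted p = 9.3e-07). Myc secondary 1 and 2 and the tumour mean were below background for Cadps2, so its size and rank are not measured. Ptn, the growth factor pleiotrophin, measured 5.79, 7.29 and 7.36 against 13.15, 12.84 and 12.88, a 70.7-fold fall. In Ptn the lowest of the tumours was Myc secondary 1, and all 3 lay far below the GFP-positive range. Both of the netrin receptors among the falls were clear of the GFP-positive range: Unc5c fell by 5.6 ± 0.55, and Dcc from 11.80, 11.84 and 11.75 to 6.06, 6.26 and 7.64 (fell by 5.15 ± 0.34, 35.4-fold). Scg2, a secretory granule protein of neurons and endocrine cells, was at least 21.6-fold lower, Arhgap6 at least 26.5-fold lower and Tfap2b, a transcription factor, at least 17.1-fold lower. Sh3gl2, an endophilin of synaptic vesicle recycling, fell by 5.58 ± 0.45, the adhesion molecule Alcam by 4.98 ± 0.34, Nkd1, a feedback inhibitor of Wnt signalling, by 4.97 ± 0.24 and the receptor phosphatase Ptprd by 4.75 ± 0.35. B3gnt5, a glycosyltransferase, and Diras2, a small GTPase, were at least 16.8-fold and 20.9-fold lower, and Ppp1r14c fell by 5.19 ± 0.29.

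**Figure D2:**
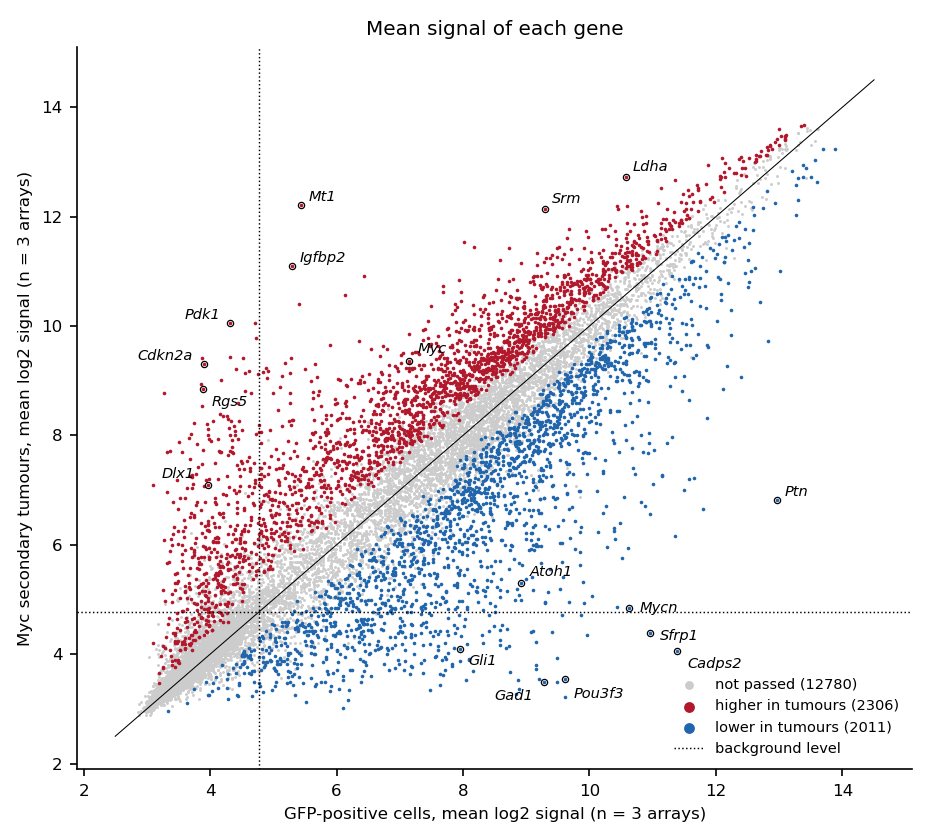
Each point is 1 of 17097 genes, with the mean log2 signal of the 3 GFP-positive arrays on the x axis and of the 3 Myc secondary arrays on the y axis. Coloured points mark the 2306 genes that rose and the 2011 that fell at adjusted p under 0.05 in limma, and the dotted lines mark background at 4.77. Mt1 and Igfbp2 stand far above the diagonal and Cadps2, Sfrp1 and Ptn far below it.

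Targets and regulators of Shh signalling were lower in the secondary tumours where they changed. Of 13 measured members, 6 fell (46.2%, beside 11.8% of all genes), 0 rose and 7 did not pass, with a median of -0.72 against 0.05 for all genes. Gli1, the transcription factor that serves as a readout of the pathway, measured 3.66, 4.31 and 4.33 against 7.98, 8.21 and 7.66, at least 9.08-fold lower (fell by 3.85 ± 0.27, adjusted p = 9.3e-07). All 3 tumours were below background for Gli1 and all 3 GFP-positive arrays were above it. Sfrp1, a secreted Wnt inhibitor found high in human Shh-type medulloblastoma, was at 4.32, 3.99 and 4.84 against 10.96, 11.09 and 10.81, a fall by 6.57 ± 0.25 (adjusted p = 1.9e-08). Gli2, the main activator among the Gli factors, was at 4.69, 6.87 and 7.31 against 9.34, 9.57 and 9.17 (fell by 3.07 ± 0.54, adjusted p = 0.001), with Myc secondary 1 the lowest. Gli3, which acts largely as a repressor, fell by 1.44 ± 0.27, the co-receptor Boc by 3.30 ± 0.26 and Sufu, which holds the Gli factors back, by 1.86 ± 0.27. Activators and inhibitors of the pathway were thus both among the members that fell.

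The receptors themselves were nearer in level. Ptch1, receptor and target, measured 10.15, 9.65 and 9.55 against 10.68, 10.52 and 10.30, and the difference of -0.72 ± 0.89 did not pass (adjusted p = 0.68) although the arrays did not overlap. In a fit of these 6 arrays alone the same difference passed (adjusted p = 0.032), with an error that leaves out the Shh tumours, where Ptch1 ran from 4.56 to 9.90. Smo was at -0.25 and did not pass (adjusted p = 0.32). Ccnd1, cyclin D1, measured 10.41, 10.22 and 10.18 against 10.43, 10.75 and 10.18 (-0.18, adjusted p = 0.68), and the groups overlapped. Hhip, a Shh-binding inhibitor, split the tumours, with 3.80 in Myc secondary 1 and 6.91 and 6.29 in the others against 3.95, 4.45 and 4.17, and it passed only without Myc secondary 1 or with the arrays weighted (2.41, adjusted p = 0.0024, without it). Without that array the list had 1 member higher and 6 lower. The co-receptors Gas1 and Cdon were below background in both groups, where neither level is measured. Among 9 genes that mark human Shh-type medulloblastoma, several of them shared with this list, 6 fell and 0 rose (median -2.53), and without Myc secondary 1, 6 fell and 1 rose (median -2.39).

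Of 13 measured genes of granule neuron progenitors, 8 fell (61.5%) and 1 rose (7.7%), beside 11.8% and 13.5% of all genes. The median was -2.87, and without Myc secondary 1 the counts were the same, with a median of -2.81. Atoh1, on which the GFP gate was built, measured 3.79, 5.64 and 6.52 against 8.97, 9.29 and 8.51 (fell by 3.61 ± 0.52, adjusted p = 0.00022). Myc secondary 1 was below background for Atoh1 and the other two were not. Barhl1, a homeobox gene downstream of Atoh1, fell from 9.17, 9.08 and 9.07 to 4.02, 4.35 and 4.87 (by 4.69 ± 0.22). Pax6, a transcription factor that granule cells keep from birth onward, was at 5.53, 7.88 and 8.24 against 11.64, 11.60 and 11.72, still above background in every tumour. The homeobox gene Meis1 fell by 4.17 ± 0.42, and the zinc finger genes Zic2, Zic4 and Zic5 by 3.82 ± 0.34, 4.68 ± 0.53 and 2.87 ± 0.25. Insm1, a zinc finger gene of dividing neural progenitors, changed least among the 8, at 10.70, 9.92 and 9.97 against 11.26, 11.13 and 10.99 (fell by 0.93 ± 0.23). Meis2 was the member that rose (adjusted p = 0.029), but all 3 GFP-positive arrays and the tumours at 3.79 and 4.66 were below background. Myc secondary 1, at 5.93, was the one array above it, so no size is given, and the call was lost without Myc secondary 3 or any 1 of the GFP-positive arrays (adjusted p = 0.055 to 0.082). Nhlh1 at -0.65 and Mfap4 at -1.31 did not pass.

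Genes of differentiating granule neurons fell in most members: 22 of 26 measured fell (84.6%) and 1 rose (3.8%), beside 11.8% and 13.5% of all genes, with a median of -1.85 and per-array medians of -1.93, -1.96 and -1.81. Cadps2 and Unc5c, given above, had the largest differences of the deposited values. Rbfox3, the neuronal nuclear antigen NeuN, was lower but still bright, at 9.83, 9.93 and 9.80 against 11.54, 11.42 and 11.59 (fell by 1.66 ± 0.16, adjusted p = 9.5e-06). Nfib, a nuclear factor of granule cell maturation, was at 11.09, 11.31 and 11.23 against 12.56, 12.36 and 12.56 (fell by 1.29 ± 0.11). Both are examples of small falls with a spread within groups far below the difference. The 3 members that did not pass, the receptor subunits Gabra6 and Grin2c and the glutamate transporter Slc17a7, are genes of mature granule cells and were below background in both groups. Calb2, the calcium-binding protein calretinin, was the gene that rose, by 2.04 ± 0.56, and it did not pass without Myc secondary 1 (1.76, adjusted p = 0.058) or GFP-positive 1 (1.78, adjusted p = 0.074). Without Myc secondary 1 the list had 0 higher and 22 lower.

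Inhibitory neurons of the cerebellum do not come from Atoh1-positive cells, and their markers were read beside those of the granule lineage. Of 11 measured markers of GABAergic and Purkinje cells, 6 fell (54.5%) and 1 rose (9.1%), beside 11.8% and 13.5% of all genes (median -1.60), and their mean level was 6.2, 6.32 and 6.55 in the GFP-positive arrays and 5.20, 4.70 and 4.63 in the secondary tumours. Gad1, which makes GABA, measured 9.10, 8.98 and 9.77 in the GFP-positive cells and 3.41, 3.52 and 3.57 in the tumours, at least 22.9-fold lower. The transcription factor Lhx5 was at least 7.77-fold lower, Slc32a1, the vesicular GABA transporter, at least 2.52-fold and Ptf1a, which specifies GABAergic progenitors, at least 2.22-fold. From GFP-negative to GFP-positive cells, Gad1 differed by 0.89 and Ptf1a by -4.96 (adjusted p = 0.044 and 3.5e-08 in limma). Lhx5 at 0.61 and Slc32a1 at 0.60 did not pass there. Gad1, Lhx5, Slc32a1 and Ptf1a were also below background in the Shh and Myc primary tumours. Lhx1, of Purkinje cells, fell by 1.60 ± 0.30 but stayed bright, at 9.79, 8.59 and 8.67, and Gad2 was below background in both groups. Foxp2, a transcription factor of Purkinje cells, was the marker that rose, by 1.44 ± 0.39. It did not pass without Myc secondary 1 (1.0, adjusted p = 0.054), where 7 markers fell, or without GFP-positive 3 (1.37, adjusted p = 0.057). These markers moved with the granule lineage genes, and their part in the results on neurons was not tested.

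Genes of ribosome production rose almost throughout. Of 36 measured, 34 rose and 0 fell, beside 13.5% of all genes higher, and the median was 1.76, or 1.67, 1.81 and 1.78 in Myc secondary 1, 2 and 3. Nop14, a factor of small-subunit assembly, measured 9.19, 9.51 and 9.29 against 6.87, 7.18 and 7.01 (2.31 ± 0.15, adjusted p = 5.9e-07). Polr1a, the largest subunit of RNA polymerase I, which transcribes ribosomal RNA, measured 9.16, 9.34 and 9.17 against 6.99, 7.21 and 6.69 (2.27 ± 0.17). Nop56, of the complexes that methylate ribosomal RNA, rose by 1.52 ± 0.12 and Nhp2, of those that pseudouridylate it, by 1.79 ± 0.13. Each of these 4 had narrow groups that stood clear of each other. Nop14 was also higher in the secondary tumours than in the Shh tumours (1.22, adjusted p = 1e-04), whose mean was 8.11. The 2 genes that did not pass were the nucleolar protein nucleolin, Ncl, at 0.17 (adjusted p = 0.71), and Rrn3, an initiation factor of RNA polymerase I, at 0.54 (adjusted p = 0.19).

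Of 19 measured metabolic genes known as Myc targets, 16 rose (84.2%, beside 13.5% of all genes) and 0 fell, with a median of 1.15. Srm, which makes the polyamine spermidine, had the largest change, at 12.10, 12.18 and 12.11 against 9.25, 9.41 and 9.24 (2.83 ± 0.21, 7.12-fold, adjusted p = 1.2e-06). Tmem97, the sigma-2 receptor of sterol metabolism, rose by 2.34 ± 0.16, and Ppat, the first committed enzyme of purine synthesis, by 1.91 ± 0.16 with 9.95, 10.07 and 9.99 against 8.07, 8.33 and 7.88. Ldha, which turns pyruvate into lactate, was at 12.16, 12.97 and 13.04 against 10.45, 10.77 and 10.53 (2.14 ± 0.21, 4.42-fold). Srm, Ppat and Ldha lay above the GFP-positive range in every tumour. The translation factors Eif4a1 at -0.11 and Eif4e at -0.06 and the pyrimidine enzyme Umps at 0.64 did not pass. Without Myc secondary 1, 15 members passed.

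The promoters of these genes were searched for the E-box CACGTG, which reads the same on both strands, in 300-base windows from 250 bases before to 50 after the start in RefSeq (GRCm38.p6). Of 31 ribosome genes with a promoter in the table, 5 held it (16.1%), and of 17 metabolic genes, 5 (29.4%), beside 10.2% of all 13514 genes with a promoter. By outcome, 15.5% of the genes that rose, 9.4% of those that fell and 9.4% of the others held it. The shares are a description of these windows and do not show that Myc binds there. The heptamer TGGGTGG, the core of the Gli site, was in 10.4% of the genes that rose, 14.1% of those that fell, 11.6% of all and 0 of 8 Shh pathway genes.

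The windows below show the E-box in capitals with up to 40 bases on each side, for 4 genes of these lists that rose and hold it, picked for the motif after their values were known. They lie at chr7:46845716-46845801 on the + strand, chr6:125131783-125131868 on the + strand, chr5:76951059-76951144 on the + strand and chr11:93968026-93968094 on the - strand (GRCm38.p6), all upstream of the start.
Ldha: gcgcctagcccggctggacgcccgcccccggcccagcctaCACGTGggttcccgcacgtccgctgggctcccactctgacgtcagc
Nop2: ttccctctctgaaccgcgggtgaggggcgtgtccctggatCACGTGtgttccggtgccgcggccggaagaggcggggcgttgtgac
Paics: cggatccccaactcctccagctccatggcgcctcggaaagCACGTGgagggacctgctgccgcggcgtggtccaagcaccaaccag
Nme1: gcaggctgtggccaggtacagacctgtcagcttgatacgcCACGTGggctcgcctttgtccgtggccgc

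Nop2, a ribosomal RNA methyltransferase, measured 8.88, 9.80 and 9.72 against 7.0, 7.09 and 6.98 (2.44 ± 0.23, adjusted p = 9.2e-06). Paics, of purine synthesis, rose by 0.57 ± 0.12 (adjusted p = 0.0036) and Nme1, a nucleoside diphosphate kinase, by 0.93 ± 0.12. The same E-box stands in the promoters of Eif4a1, Eif4e and Rrn3, the members given above that did not pass, so the motif did not separate the members that rose from those that did not.

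Glycolysis and hypoxia genes rose in 16 of 22 measured members (72.7%, beside 13.5% of all genes), and 0 fell, and 17 rose without Myc secondary 1. The median was 1.90, and it differed between the tumours, at 1.28 in Myc secondary 1 and 2.16 and 2.20 in the other two. Pdk1, a kinase that keeps pyruvate out of the mitochondrial cycle, measured 10.63, 9.86 and 9.65 against 4.22, 4.12 and 4.62, at least 38.8-fold higher. Car12, a carbonic anhydrase induced by low oxygen, was at 7.52, 8.26 and 7.88 against 3.81, 3.24 and 3.47, at least 8.67-fold higher. Pgk1, a glycolytic kinase, rose by 1.68 ± 0.16 and Slc2a1, the glucose transporter GLUT1, by 2.46 ± 0.48. Along the pathway, the enzymes Pfkp, Aldoa, Tpi1 and Pkm rose by 1.99, 1.95, 1.06 and 1.64, and the glucose transporter Slc2a3 by 1.45. Hexokinase 2, Hk2, rose by 1.12 ± 0.30 and did not pass without Myc secondary 2 (0.98, adjusted p = 0.058) or 3 (0.98, adjusted p = 0.057). Pfkl, the liver-type phosphofructokinase, was at least 6.43-fold higher and differed between tumours, at 5.91 in Myc secondary 1 and 8.31 and 8.14 in the others. Bnip3, a mitophagy receptor, was at 8.08 in Myc secondary 1 and 10.34 and 10.26 in the others, against 8.03, 8.20 and 8.15, and its difference of 1.43 did not pass (adjusted p = 0.15). It passed without Myc secondary 1 (2.17, adjusted p = 0.018) and with the arrays weighted (2.06, adjusted p = 0.00044). Vegfa, the vascular growth factor, rose by 2.65 ± 0.70 with Myc secondary 1 the lowest at 6.67, and did not pass without Myc secondary 3 (2.27, adjusted p = 0.06). Gapdh, a glycolytic dehydrogenase, was at 0.08 and did not pass (adjusted p = 0.74).

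Of 32 measured cell cycle genes, 4 rose (12.5%) and 6 fell (18.8%), beside 13.5% and 11.8% of all genes, and the median was 0.15. Cdk6, the kinase that D-type cyclins activate, was at 5.80, 4.05 and 5.11 against 8.81, 9.10 and 8.86 (fell by 3.93 ± 0.37, adjusted p = 8.3e-06), and Ccnd2, cyclin D2, at 11.50, 10.87 and 10.80 against 12.57, 12.78 and 12.49 (fell by 1.56 ± 0.26). Ccne1, cyclin E1, which drives entry into S phase, rose by 1.20 ± 0.22 with 8.63, 7.82 and 8.30 against 6.90, 7.30 and 6.95. Mybl2, a transcription factor of dividing cells, rose by 1.42 ± 0.25. Mki67, the proliferation antigen Ki-67, fell by 0.87 and Ccnb2, cyclin B2, by 0.86, the latter not passing without GFP-positive 2 (-0.74, adjusted p = 0.054). The remaining calls were under 1 unit and fragile. Mcm2, of the replication helicase, and Cdk1, the mitotic kinase, rose by 0.84 and 0.46, and the factors E2f1 and Foxm1 fell by 0.50 and 0.52. Mcm2 did not pass without GFP-positive 1 or 3 or Myc secondary 2 or 3 (adjusted p = 0.052 to 0.087), and Cdk1 did not without any 1 array other than GFP-positive 2 (adjusted p = 0.061 to 0.18). E2f1 did not pass without GFP-positive 1 or 2 or Myc secondary 3 (adjusted p = 0.051 to 0.063), nor Foxm1 without GFP-positive 1 or 2 (adjusted p = 0.056 and 0.05).

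Among CDK inhibitors and p53 target genes, 4 of 19 measured rose (21.1%) and 2 fell (10.5%), beside 13.5% and 11.8% of all genes (median 0.49), and without Myc secondary 1, 7 rose and 2 fell. The 4 include Cdkn2c, which is deleted in both groups and was below background on all 6 arrays, as given above. Cdkn2a, the locus of p16Ink4a and p19Arf, measured 9.18, 9.83 and 8.92 in the secondary tumours and was below background in the GFP-positive cells at 3.54, 4.18 and 3.99, at least 23.3-fold higher (adjusted p = 0.00016). The probe set does not tell which of the products was present. Cdkn1b, p27Kip1, which rises as granule progenitors leave the cycle, fell from 11.66, 11.34 and 11.39 to 10.25, 9.74 and 10.18 (by 1.41 ± 0.15). Cdkn2d, p19Ink4d, fell by 1.95 ± 0.25. Perp, a p53 target of cell adhesion, was at 5.23, 5.89 and 6.36 against 3.40, 3.67 and 3.59, all below background, and was at least 2.08-fold higher, although neither group carries Trp53. Aen, an exonuclease that p53 induces, rose by 1.37 ± 0.29.

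Of 21 measured homeobox and related genes of brain regions, 3 rose (14.3%) and 5 fell (23.8%), beside 13.5% and 11.8% of all genes, and 11 were below background in both groups, with a median of 0.04. Dlx1, a homeobox gene of forebrain interneurons, measured 7.34, 6.76 and 7.19 against 3.90, 3.96 and 4.01, at least 5.02-fold higher (adjusted p = 5.9e-08), and its neighbour Dlx2 was at least 1.39-fold higher. Irx5 rose by 3.02 ± 0.41. Pou3f3, a POU factor of neural progenitors, was at 3.41, 3.48 and 3.72 against 9.70, 9.56 and 9.58, at least 28.7-fold lower. Otx2, which granule progenitors express and group 3 medulloblastomas often amplify or overexpress, was at 3.83, 3.76 and 3.42 against 8.63, 8.93 and 8.71, at least 15.8-fold lower. The hindbrain gene En2 fell by 1.28 ± 0.19 and stayed bright, at 8.17, 8.27 and 8.77, and En1 passed as lower (adjusted p = 0.016), though both means lay below background (3.23 and 4.67), so no size is given. That call was lost without GFP-positive 1 (adjusted p = 0.059) or 3 (adjusted p = 0.062). The tumours thus kept a bright En2 signal while Otx1, at least 2.21-fold lower, and Otx2 were below background in all 3.

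Dlx1 and Pou3f3 also differed between the secondary and the Myc primary tumours. In that comparison 123 of 17097 genes passed (0.719%), 44 higher and 79 lower in the secondary tumours. A fit of those 6 arrays alone called 1 gene and a fit with a term for title numbers 860. That term rests on GFP-negative 3 set against GFP-negative 1 and 2. The count over all arrays ran from 25 without Myc secondary 2 to 271 without Myc primary 1, with 47 without Myc primary 3 and 60 without Myc secondary 3. Dlx1 had a mean of 3.95 in the primary tumours, below background as in the GFP-positive cells, and was at least 5.02-fold higher in the secondary tumours (adjusted p = 5.7e-07). Pou3f3 had a mean of 7.54 in the primary tumours and was at least 6.85-fold lower in the secondary tumours (adjusted p = 0.00058). Arhgap6 (at least 11.0-fold, adjusted p = 0.0077), B3gnt5 (at least 4.69-fold, adjusted p = 0.0077), Scg2 (at least 5.41-fold, adjusted p = 0.012) and Ppp1r14c (-1.57, adjusted p = 0.036) of the largest falls were lower than in the primary tumours as well, and Htr3a was higher (2.93, adjusted p = 0.048). Cdk6 (-3.24, adjusted p = 0.0034), Zic4 (-2.67, adjusted p = 0.043) and Sox9 (at least 1.96-fold, adjusted p = 0.013) were also lower than there. Cdk6 had a mean of 8.22 in the primary tumours, which did not differ from the GFP-positive cells (-0.70, adjusted p = 0.21). Igfbp3, Nrp2, Eif4ebp1 and Fkbp11 of the largest rises had differences from the primary tumours of -0.11 to 0.57 that did not pass. Both comparisons use the same secondary tumour arrays, so they are not separate evidence. All Myc primary arrays carry earlier title numbers than the secondary ones, and the part of that in these differences cannot be told apart.

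Of 18 neural stem cell genes, 5 rose (27.8%) and 2 fell (11.1%), beside 13.5% and 11.8% of all genes (median 0.36), and without Myc secondary 1, 4 rose and 3 fell. Prom1, which encodes CD133, was at 9.70, 10.53 and 10.62 against 7.81, 8.20 and 7.62 (2.41 ± 0.33). The hyaluronan receptor Cd44 was at 8.44, 7.77 and 6.89 against 4.18, 4.15 and 4.13, at least 7.62-fold higher. The intermediate filament gene Nes was at least 1.46-fold higher. The other rises were Fut4, below background in both groups, and the homeobox gene Lhx2 (1.59 ± 0.51), led by Myc secondary 1 at 8.29 beside 5.97 and 6.73, which did not pass without that array (0.94, adjusted p = 0.12), Myc secondary 3 or any 1 GFP-positive array (1.46 to 1.76, adjusted p = 0.054 to 0.11). Fut4 did not pass without GFP-positive 1 or 3 or Myc secondary 1 or 2. Sox9, a transcription factor of glial and stem cells, was below background in the tumours at 3.85, 4.13 and 4.21 against 7.56, 7.64 and 7.60, at least 7.12-fold lower (adjusted p = 9.5e-07), and Pax3, of dorsal neural progenitors, was at least 7.46-fold lower. Sox2, at -1.14, did not pass.

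In the Notch pathway 4 of 13 measured members rose (30.8%) and 1 fell (7.7%), beside 13.5% and 11.8% of all genes (median 0.49). The ligand Dll1 rose by 2.08 ± 0.50, the feedback inhibitor Nrarp by 2.43 ± 0.45 with 7.67, 6.90 and 7.04 against 4.81, 4.54 and 4.97, and Hes6, which promotes neuronal differentiation, by 0.77 ± 0.19. The ligand Jag1 was at least 1.6-fold higher, a call lost without any 1 array other than Myc secondary 2 (adjusted p = 0.066 to 0.14). Hey1, a repressor that Notch induces, fell from 10.02, 10.36 and 9.91 to 7.82, 7.33 and 7.61 (by 2.51 ± 0.34). Of 14 pluripotency and oncofetal genes, the de novo DNA methyltransferase Dnmt3b alone rose, by 1.15 ± 0.23, and 0 fell. Without Myc secondary 1, 2 rose and 1 fell, and Lin28a passed as higher (adjusted p = 0.0019) while below background on all 6 arrays, where the order is not measured.

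Of 5 measured genes that mark human group 3 medulloblastoma, 1 rose (20%) and 2 fell (40%), beside 13.5% and 11.8% of all genes. Npr3, a natriuretic peptide receptor, was the one that rose, at 5.29, 8.23 and 8.22 against 3.64, 3.6 and 3.81, at least 5.58-fold higher. Eomes, a T-box factor of unipolar brush cells, fell by 3.54 ± 0.61, and Nrl, a photoreceptor factor that also passed as lower, was below background in both groups. In group 4, Eomes and the potassium channel gene Kcna1 fell among 7 measured genes (28.6%), and in the WNT group Gad1 and the feedback gene Axin2, at least 2.19-fold lower, fell among 9 (22.2%). Kcna1 (-2.55 ± 0.78) did not pass without any 1 of the GFP-positive arrays or Myc secondary 2 or 3 (adjusted p = 0.058 to 0.097), and Axin2 did not without GFP-positive 3 (adjusted p = 0.053). Of 11 photoreceptor genes, 10 were below background in both groups, and 2 passed, Gnat2 as higher (at least 1.77-fold) and Nrl as lower.

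**Figure D3:**
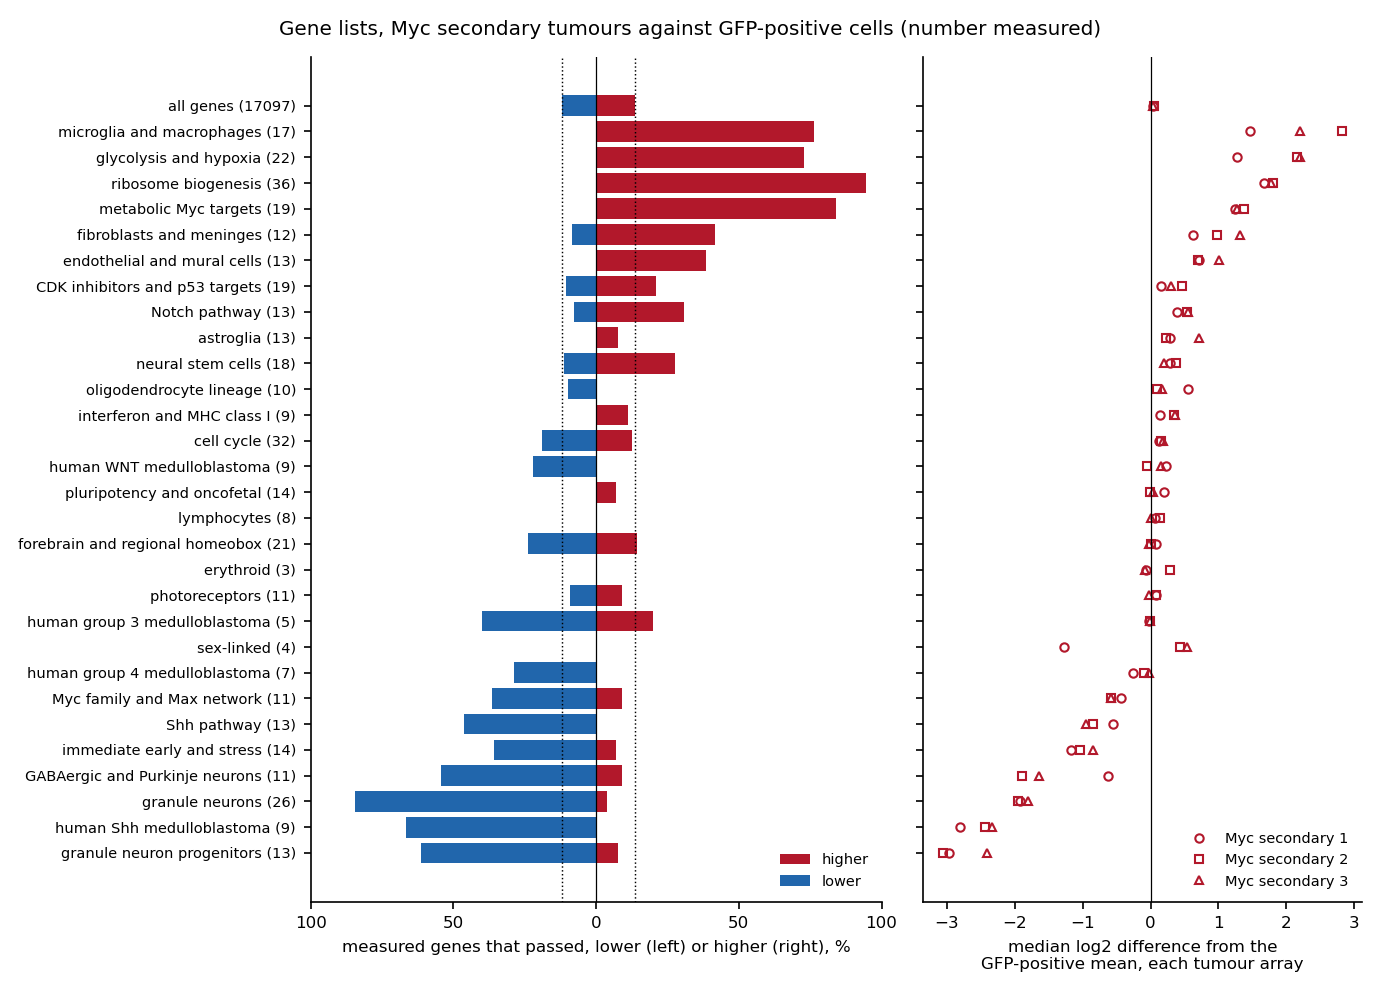
For all genes and each of the 29 gene lists, the left bars give the percent of measured genes that rose (right of 0) or fell (left of 0), with dotted lines at the 13.5% and 11.8% of all genes, and the right points the median log2 difference of each Myc secondary array from the GFP-positive mean. The ribosome, glycolysis and microglia lists lie to the right of 0 in all 3 tumours and the granule neuron lists to the left, and the glycolysis and microglia medians spread more between tumours than the ribosome median.

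Blood, vessel and connective tissue cells of the host can enter a transplanted tumour, and their markers were read for that reason. Of 17 markers of microglia and macrophages, 13 rose (76.5%, beside 13.5% of all genes) and 0 fell (median 2.16), and 14 rose without Myc secondary 1. In the GFP-positive cells all 17 had a mean below background. Ctss, a lysosomal protease of macrophages, was at 8.47, 9.70 and 9.23 against 4.50, 4.44 and 5.31 (4.38 ± 0.38), and C1qb, a complement subunit of microglia, at 7.45, 8.61 and 8.03 against 3.72, 3.48 and 3.91, at least 9.59-fold higher. Lyz2, lysozyme of macrophages and granulocytes, was at least 16.1-fold higher. The mean level of the whole list was 5.64, 6.98 and 6.29 in Myc secondary 1, 2 and 3 against 3.92, 3.91 and 4.22. Myc secondary 1 was thus the lowest of the secondary tumours in these markers, and above all GFP-positive arrays. The list median was 6.12 in the secondary tumours and 4.14 in the GFP-positive cells. It was 5.23 in the Shh tumours, which arose spontaneously, and 9.82 in the GFP-negative cells. C1qb and Ctss did not differ from the Shh tumours (0.38 and 0.37, adjusted p = 0.47 and 0.54). Entry of host cells and a sort that leaves such cells out of the GFP-positive samples cannot be told apart here.

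Of 13 measured markers of endothelial and mural cells, 5 rose (38.5%, beside 13.5% of all genes) and 0 fell, with mean levels of 5.57 to 5.83 in the tumours against 4.01 to 4.30. Rgs5, of pericytes, measured 8.95, 8.62 and 8.97 against 3.51, 3.93 and 4.23, at least 16.9-fold higher, and smooth muscle actin, Acta2, was at least 11.4-fold higher. The endothelial genes Vwf and Esam were at least 1.91-fold and 3.0-fold higher, and Flt1, a VEGF receptor, rose by 1.09 ± 0.37, a call lost without Myc secondary 2 or 3 or any 1 GFP-positive array (0.97 to 1.15, adjusted p = 0.09 to 0.15). Of 12 markers of fibroblasts and meninges, 5 rose (41.7%) and 1 fell (8.3%), beside 13.5% and 11.8% of all genes, with mean levels of 6.15, 6.46 and 6.52 against 4.55, 4.79 and 4.65. Mgp, a matrix protein, was at 9.81, 9.24 and 9.21 against 3.70, 4.0 and 3.90, at least 25.1-fold higher, and Col3a1, a fibrillar collagen, was at least 14.2-fold higher. Ptgds, a prostaglandin synthase of the meninges, rose by 4.14 ± 0.53, fibronectin, Fn1, by 1.55 ± 0.38, and Igfbp2 of this list is given above. The matrix genes Col4a1, of basement membranes, was at least 18.0-fold higher, and Sparc rose by 5.05 ± 0.60. The marker that fell was Pdgfra, a growth factor receptor that oligodendrocyte precursors share, at 4.94, 4.25 and 4.2 against 8.50, 9.06 and 8.51.

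Other cell types left less. Of 13 measured astroglia markers, Apoe, a lipid carrier that macrophages also make, rose by 3.76 ± 0.40 and the others did not pass. Of the 13, 7 had means below background in both groups. Clu and Sparcl1 were higher by 1.93 and 1.90, and Aldoc, below background in the GFP-positive cells, was higher too (adjusted p = 0.088, 0.12 and 0.072). Their error takes in other groups, with an SD of 1.94 and 2.42 for Clu and Aldoc in the Myc primary tumours and 1.98 for Sparcl1 in the Shh tumours. Of 10 oligodendrocyte lineage markers, Pdgfra fell and 0 rose. Of 8 lymphocyte and 3 erythroid markers, limma called 0, and 0 had an unadjusted p under 0.05. The mean levels of the microglia, vessel and fibroblast markers moved with the comparison, and their part in the rises of matrix, immune and vessel genes was not tested.

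**Figure D4:**
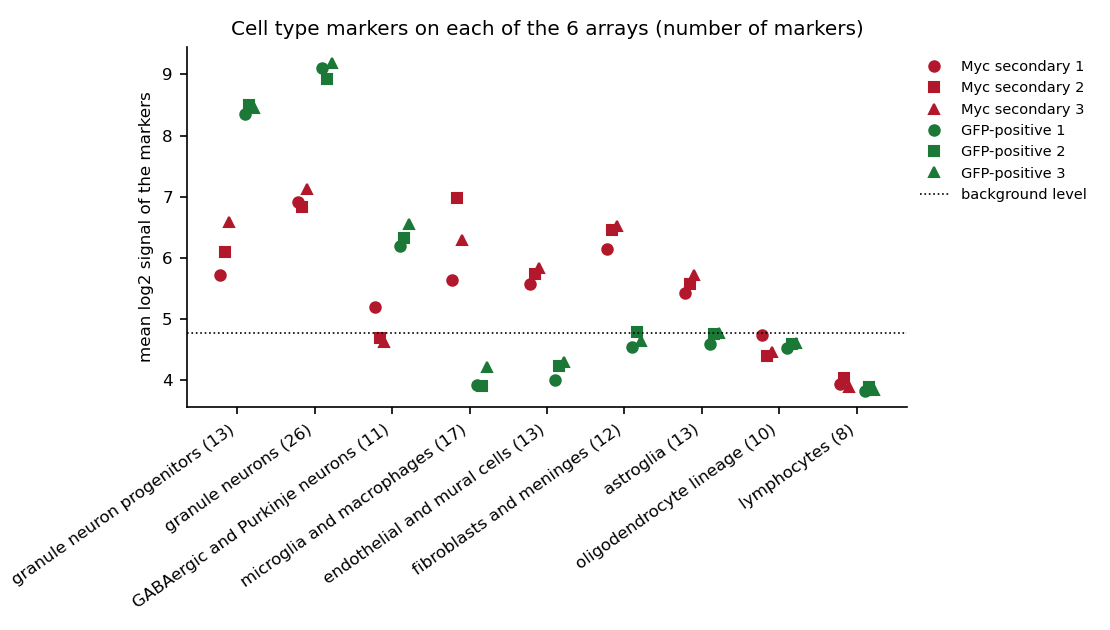
Mean log2 signal over all measured markers of 9 cell types, 1 point per array, for the Myc secondary and GFP-positive groups, with the background level of 4.77 as a dotted line. Microglia, vessel and fibroblast markers are higher in all 3 tumours, and granule lineage and GABAergic markers are lower in all 3.

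A pair of small lists bears on handling and on the host. Of 14 immediate early and stress genes, 5 fell (35.7%) and 1 rose (7.1%), beside 11.8% and 13.5% of all genes, with a median of -0.84, and without Myc secondary 1, 2 fell and 1 rose. Jun, an AP-1 subunit that tissue dissociation induces, was at 9.47, 9.52 and 9.86 against 12.06, 11.88 and 11.68 (fell by 2.26 ± 0.51, adjusted p = 0.0055), and its relative Jund fell by 0.95 ± 0.24, but not as the mean of its probe sets (-0.25, adjusted p = 0.34). Egr2, Ier2 and Dusp1 fell by 2.59, 1.28 and 1.3, calls that were each lost without Myc secondary 1 (-1.80, -1.23 and -1.29, adjusted p = 0.12, 0.054 and 0.075), and without other single arrays, all 6 for Dusp1. The nuclear receptor Nr4a1 rose by 1.71 ± 0.46, a call lost without GFP-positive 1 (1.56, adjusted p = 0.061) or Myc secondary 2 (1.58, adjusted p = 0.056). The GFP-positive cells, which were sorted, were thus brighter in Jun than the secondary tumours. Jun was at 11.60, 12.82 and 12.15 in the Shh tumours, which did not differ from the GFP-positive cells in limma (0.32, adjusted p = 0.81). The part of handling in these and the other results was not tested. Of 9 interferon and MHC class I genes, H2-K1, a class I heavy chain, rose by 1.74 ± 0.40 and 0 fell, and without Myc secondary 1, 3 rose. Sex-linked genes did not pass, and they varied inside the groups: Xist was at 5.83, 7.99 and 7.42 in the tumours and 5.6, 11.84 and 11.89 in the GFP-positive cells.

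The same genes were read in the Shh tumours, which share the loss of Cdkn2c and were measured on the same array type. The secondary tumours differed from them in 3897 genes (22.8%), 1798 higher and 2099 lower, and centring each array on its median turns this split to 3611 of 4953 higher. With a term for title numbers 2674 passed, 1783 of them higher. All Shh arrays carry earlier title numbers than the secondary tumour and GFP-positive arrays. A difference between early and late titles and one between these groups therefore cannot be told apart. Only the GFP-negative cells have titles of both kinds, so the term for title numbers rests on GFP-negative 3 set against GFP-negative 1 and 2. A count with that term is therefore not one freed of a difference between early and late titles. The 2 comparisons below share the GFP-positive arrays, so their values are set side by side. Gli1 was at 9.05, 9.38 and 9.58 in the Shh tumours, a rise of 1.39 from the GFP-positive cells (adjusted p = 0.0075), where the secondary tumours fell below background. Cdk6 was at 10.47, 10.97 and 10.57, a rise of 1.75 (adjusted p = 0.011), where the secondary tumours fell by 3.93. Set against the Shh tumours directly, the secondary tumours were at least 23.7-fold lower for Gli1 (adjusted p = 1e-07) and differed by -5.68 for Cdk6 (adjusted p = 7.5e-07). Eif4ebp1 rose in both tumour types, by 4.43 in the secondary and 3.27 in the Shh tumours, with a difference of 1.17 between them (adjusted p = 0.017). Igfbp3, Nrp2 and Fkbp11 had Shh tumour means of 5.05, 4.65 and 4.45 and were higher in the secondary tumours, Igfbp3 by 3.95, and Nrp2 and Fkbp11, below background in the Shh tumours, at least 25-fold and 21.7-fold. Col4a1 was at least 9.75-fold higher in the Shh tumours than in the GFP-positive cells and Sparc rose there by 4.44, and the secondary tumours differed from those by 0.89 and 0.61, which did not pass.

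The 3 secondary tumours were not alike. Chosen after the values were seen, 66 genes lay at least 3 units away in Myc secondary 1 from the mean of the other two, which were within 1 unit of each other: 27 higher and 39 lower in Myc secondary 1. Cthrc1, a secreted matrix protein, was at 4.14 in Myc secondary 1 and at 10.29 and 10.09 in the others. Cdkn1c, p57Kip2, was at 4.85 against 9.40 and 10.03, the Notch ligand Dll3 at 6.08 against 9.44 and 9.79, and Egln3, an oxygen-sensing hydroxylase, at 4.60 against 8.0 and 8.49. In the other direction, Ppp1r17, a phosphatase inhibitor known from Purkinje cells, was at 8.70 against 3.45 and 3.48, and the imprinted gene Dlk1 at 8.87 against 5.24 and 5.57. For these genes a mean over the 3 tumours describes none of them.

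Genes of chromosome 14 were lower in all 3 secondary tumours. Of its 596 genes, 149 fell (25%) and 20 rose (3.4%), beside 11.8% and 13.5% of all genes. Over its 328 genes above background in either group, the median difference from the mean of the GFP-positive arrays was -0.74, -0.77 and -0.72 in Myc secondary 1, 2 and 3. The Myc primary tumours had -0.83, 0.00 and -0.52, and the Shh tumours 0.09 to 0.13. Where both groups were above background, 210 of 271 genes of chromosome 14 (77.5%) were lower, against 4275 of 8929 genes (47.9%) over all chromosomes. Otx2, Zic2 and Zic5, given above, lie on chromosome 14, and the falls of Zic2 and Zic5, 3.82 and 2.87, were several times the median of the chromosome.

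Chromosome 16 was lower in 2 of the 3 tumours, with medians of -0.12, -0.59 and -0.53, and 92 of its 561 genes fell (16.4%) and 25 rose. The Myc primary tumours had -0.72, -0.63 and -0.13 and the Shh tumours -0.67, -0.45 and 0.10 on it. Chromosome 7 was lower in Myc secondary 1 (-0.42) and not in the others (0.13 and 0.12). The other 17 chromosomes had medians of -0.21 to 0.18 in Myc secondary 1, -0.06 to 0.22 in Myc secondary 2 and -0.03 to 0.23 in Myc secondary 3, and the GFP-positive arrays lay within -0.04 and 0.03. Myc secondary 2 and 3 thus shared their low chromosomes, and Myc secondary 1 shared chromosome 14 with them. DNA copy number was not measured, and its part in these medians was not tested.

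**Figure D5:**
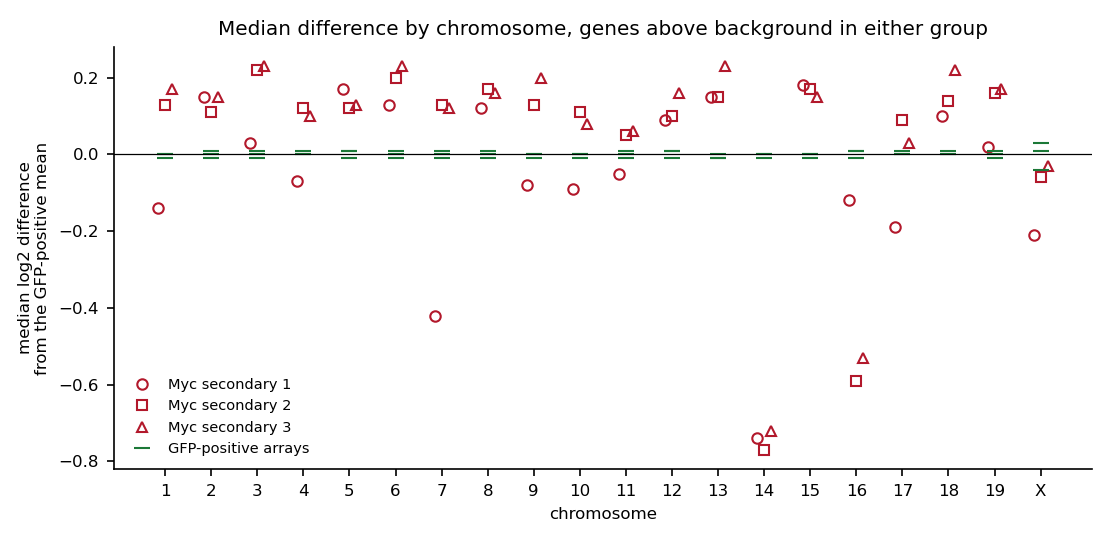
Median log2 difference of each array from the mean of the 3 GFP-positive arrays, by chromosome, over genes above background in either group. The 3 Myc secondary arrays lie at -0.72 to -0.77 on chromosome 14, and Myc secondary 2 and 3 at -0.59 and -0.53 on chromosome 16.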

How the data were processed

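Total RNA was measured on 15 Affymetrix HT MG-430 PM arrays in 5 groups of 3, and 6 of these arrays enter the comparison. The deposited values are on a log2 scale and were made by the authors with RMA in Partek 6.5, per the submitters' processing notes; the aligner of probes to genes and the probe sequences are not given in the sources used here. No raw scanner values were used, and the number of arrays limits the precision. Probe sets were named through the platform annotation, with symbols updated through RefSeq (GRCm38.p6). Of 45141 probe sets, 104 were controls, 15588 had no listed gene, 551 had several and 28898 had 1. For each gene the probe set of highest mean signal over the 15 arrays was taken, and 7180 of the 17097 genes had more than 1. Trp53 is not reported here.

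Tests used limma 3.58.1 (R 4.3.3) in a model with 1 mean per group over all 15 arrays, which share 1 estimate of the spread for each gene (10 residual degrees of freedom, prior 2.54), and p-values were adjusted by Benjamini-Hochberg over all genes. Background was set at 4.77, under which 95% of the values of 23 nonspecific control probe sets lie. A lower bound of a fold sets the mean of the brighter group against that level. A simulation drew independent normal noise with 1 pooled SD per gene for all arrays. In it the test recovered 62.5%, 91.5% and 99% of 200 genes each shifted by 1, 2 and 3 units. Of its 534 calls, 28 were genes without a shift. That noise lacks the distance of Myc secondary 1 from Myc secondary 2 and 3, so these shares may not hold for this comparison. The genes and 29 lists (443 genes, 396 measured) were chosen with earlier results of these data known, so no list is independent support. Named genes are the 15 largest rises and falls and the 8 largest of each with both means above background, among genes with adjusted p under 0.05, a 2-fold difference and no overlap of arrays, genes of the model, every member of the Myc, Shh pathway, progenitor and homeobox lists that the text takes up, and the members of each other list with the smallest adjusted p. Nop2, Paics, Nme1, Ncl, Rrn3, Umps, Eif4a1, Eif4e, Calb2, Foxp2, Gapdh, Bnip3, Vegfa, Slc2a1, Sox2, Lin28a, further members that passed in lists with few calls and the genes that set Myc secondary 1 apart were named after their values were seen. Alternatives were the mean of all probe sets, every probe set, a filter on dim genes, and loess and median scaling. Further ones were a fit of the compared arrays alone, an intensity trend, array weights and leaving out each array in turn. Another was a term for earlier against later title numbers (both groups are later ones). No label names these as batches, and the term rests on GFP-negative 3 set against GFP-negative 1 and 2. The last left out Myc primary 3, GFP-negative 3 and Myc secondary 1 together. Myc primary 3 correlated with its group at a mean r of 0.9705, beside 0.9725 and 0.9719 for Myc primary 1 and 2. Figures were drawn with matplotlib 3.10.9.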

Additional observations from a re-analysis of the deposited data

Results flagged for a closer look

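At 4 named genes the secondary tumours and the Shh tumours changed in opposite directions from the same GFP-positive arrays, and the tumours differed from each other in limma. Gli1 fell by 3.85 in the secondary tumours (-3.85) and rose by 1.39 in the Shh tumours, a difference of -5.24 (adjusted p = 1e-07). Sox9 changed by -3.53 and 1.43, a difference of -4.96 (adjusted p = 8.5e-08). Cdk6 changed by -3.93 and 1.75, a difference of -5.68 (adjusted p = 7.5e-07). Otx1 changed by -2.50 and 2.21, a difference of -4.71 (adjusted p = 5.8e-08). Gli1, Sox9 and Otx1 were below background in all 3 secondary tumours, so their values there are not measured sizes. They were at least 9.08-fold, 7.12-fold and 2.21-fold below the GFP-positive cells and at least 23.7-fold, 19.1-fold and 10.2-fold below the Shh tumours. In all 4, each of the 3 secondary arrays was below, and each of the 3 Shh arrays above, every GFP-positive array. The Shh arrays carry earlier title numbers than both other groups, and the part of that in these differences cannot be told apart.

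One of the 3 probe sets of Mycn, not used for the gene, had the largest difference of any probe set with a gene, 8.86, while both of the others fell. Its GFP-positive arrays were below background, so it was at least 312-fold higher. Among the 15588 probe sets without a listed gene, which enter no comparison of genes, limma called 2934, of which 1079 were higher and 1855 lower in the secondary tumours.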

How the results depend on the processing

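The count of 4317 changed genes was 6818 when every probe set was tested and 7418 with array weights, and 3324 to 4482 with each array left out in turn. At 2-fold or more, 2687 became 4197 with every probe set and ranged from 2327 to 2911 with arrays left out. Against the Shh tumours, 3897 became 6341 with every probe set, 6566 with array weights and 2674 with the term for title numbers, with 2890 to 3821 when arrays were left out. Against the Myc primary tumours, 123 became 264 with the mean of probe sets, 475 with every probe set, 274 with median centring and 1 in a fit of those 6 arrays. It became 581 with array weights, 860 with the term for title numbers and 284 without Myc primary 3, GFP-negative 3 and Myc secondary 1. With arrays left out in turn it was 25 to 271, and the cause was not tested. The share of higher genes among those called was 53.4%, 50.2% with loess and 55.5% with median centring. Of 172 genes named for their difference, 148 passed, and 119 of these passed under all 15 settings. Among those that did not pass, the difference turned sign for Eif4e (-0.18 to 0.01 with arrays left out), Gapdh (-0.07 with loess) and Ncl (-0.06 to 0.34 with arrays left out). Testing every probe set gives no single value per gene. Of 464 list medians over all settings, 60 moved by more than the SD between arrays and 10 changed sign. No paired analysis was run, since the labels name no unit that a secondary tumour and a GFP-positive sample share. Signals below background in both groups carry no measured order, whatever the test gave.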
